A study of Mus musculus with 2 samples.

Results

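GABAergic interneurons were selected from hippocampal library 1 of a mouse single-cell RNA study, and 168 cell barcodes met the selection. A barcode had to hold 1000 or more unique molecular identifiers (UMIs, each a counted RNA molecule) from 500 or more genes, with no more than 10% of them from mitochondrial genes. It was called neuronal where the long non-coding RNAs Meg3 and Snhg11 made up at least 1.5% of its UMIs, and an interneuron where Gad1, Gad2 and Slc32a1 together gave at least 2 UMIs. The members were thus chosen by measured values, and the levels of these 5 genes are a description of the selection. The 168 barcodes were 3.66% of the 4585 neuronal barcodes of library 1 (exact binomial 95% interval 3.14 to 4.25%), 2.33% of the 7209 that passed the depth, gene and mitochondrial limits, and 1.37% of all 12306. The series as a whole held 18754 barcodes.

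The series examined how the way brain tissue is taken apart shifts the RNA of its cells, with 10x Genomics 3' chemistry, version 3. Each of its 2 libraries pooled the hippocampi of 3 male wild-type C57BL/6 mice, adults of 10 weeks, and the cells were released either mechanically at 4 °C or by enzymes for 30 min at 37 °C, before percoll separation from debris and myelin. No label ties a library to either treatment, so neither library stands for a method here and no comparison between them was made. The selection found 3 barcodes in library 2, of 35 neuronal ones, with 1089 to 1851 UMIs each, 3 UMIs of Cck and 0 of the other subtype genes described below, so all results are from library 1.

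Interneurons are the inhibitory neurons of the hippocampus. They make GABA from glutamate with the enzymes encoded by Gad1 and Gad2, load it into synaptic vesicles with the transporter encoded by Slc32a1, and restrain the far more numerous glutamatergic pyramidal and granule cells. They are born outside the cortex, in the medial and caudal ganglionic eminences (MGE and CGE), under the Dlx transcription factors. Cells of MGE origin use Lhx6 and commonly make somatostatin (Sst) or parvalbumin (Pvalb), and many make neuropeptide Y (Npy). Cells of CGE origin are commonly marked by Adarb2 and include those that make vasoactive intestinal peptide (Vip) or cholecystokinin (Cck).

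The peptide genes carry short control sequences next to their start, and the cAMP response element, TGACGTCA, was first described in the somatostatin promoter. The 100 bases before the RefSeq start of 4 peptide genes used below to describe subtypes are printed from RefSeq (build GRCm38.p6), each 5′ to 3′ on the strand of its gene, with a full element or its core (TGACG, or CGTCA on the other strand) in capitals.
Sst, chr16:23890845-23890944, minus strand: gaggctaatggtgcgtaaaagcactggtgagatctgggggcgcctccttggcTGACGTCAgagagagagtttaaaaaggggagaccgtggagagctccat
Vip, chr10:5639118-5639217, plus strand: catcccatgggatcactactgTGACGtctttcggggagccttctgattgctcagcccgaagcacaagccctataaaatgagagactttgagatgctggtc
Cck, chr9:121495695-121495794, minus strand: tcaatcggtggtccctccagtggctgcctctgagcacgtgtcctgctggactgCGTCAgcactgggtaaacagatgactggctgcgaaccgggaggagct
Npy, chr6:49822610-49822709, plus strand: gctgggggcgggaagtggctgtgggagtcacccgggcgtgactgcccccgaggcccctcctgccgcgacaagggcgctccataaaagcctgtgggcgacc
The Sst window held the full element, which begins 48 bases before the start, and the Vip and Cck windows held the core alone, at 79 and 47 bases. Neither was in the Npy window. Searched on both strands, the full element was in 1.15% and the core, which the full element contains, in 10.5% of 32851 windows of the same length. A match is a description of the letters and was not tied to any measurement.

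The interneurons held 371281 UMIs, with 1007 to 7025 per barcode (median 2047.5) and a median of 1256.5 genes. The comparison group, called the other neurons, was the 4228 neuronal barcodes of library 1 with 0 UMIs of Gad1, Gad2 and Slc32a1 (8768089 UMIs, median 1847.5). A count of 0 at this depth does not show that a cell lacks these RNAs. Of the other neurons, 72 held 2 or more UMIs of Adarb2 and 16 held 2 or more of Sst. How many interneurons this group holds was not tested. The 189 neuronal barcodes with exactly 1 UMI of the 3 genes were kept out of both groups. The 828 barcodes past the same limits that were not neuronal and held at least 5 UMIs of 4 microglial genes together, Cx3cr1, P2ry12 and Csf1r among them (median 2271 UMIs), show how often RNA of neurons appears in droplets of a cell that should lack it. The libraries shared 19 barcode sequences, of which 0 were interneurons. Levels are UMIs summed over a group per 1000000 UMIs of that group (CPM). All intervals are exact at 95% and cover counting error only, since there is 1 library, no replicate and hence no test.

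Gad1 gave 111 UMIs in 79 of the 168 barcodes, Gad2 168 UMIs in 104 and Slc32a1 237 UMIs in 121. All 3 genes were seen in 23 barcodes, 2 of them in 90 and 1 of them in 55. Most members lay close to the limit: 79 had exactly 2 UMIs, 43 had 3 and 46 had 4 or more, with a highest value of 9. The barcodes just outside it, with 1 UMI, lay between both groups for most of the genes described below, though not for Vip (102 CPM with 1 UMI, 91.6 in the interneurons and 11.2 in the other neurons) or Pvalb (25.6, 18.9 and 1.37). Dlx6os1, a non-coding RNA of the Dlx locus, was at 9.01 CPM with 0 UMIs of the 3 genes, 228 with 1, 296 with 2, 572 with 3 and 583 with 4 or more. Sst, the somatostatin gene, was at 25.7, 266, 462, 540 and 1175 CPM in the same order. Slc17a7, the vesicular glutamate transporter of pyramidal and granule cells, ran the other way, at 1000.3, 551, 302, 146 and 132 CPM. The plot of 6 genes by UMIs of the selecting genes shows these steps with their intervals.

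**Figure D1:**
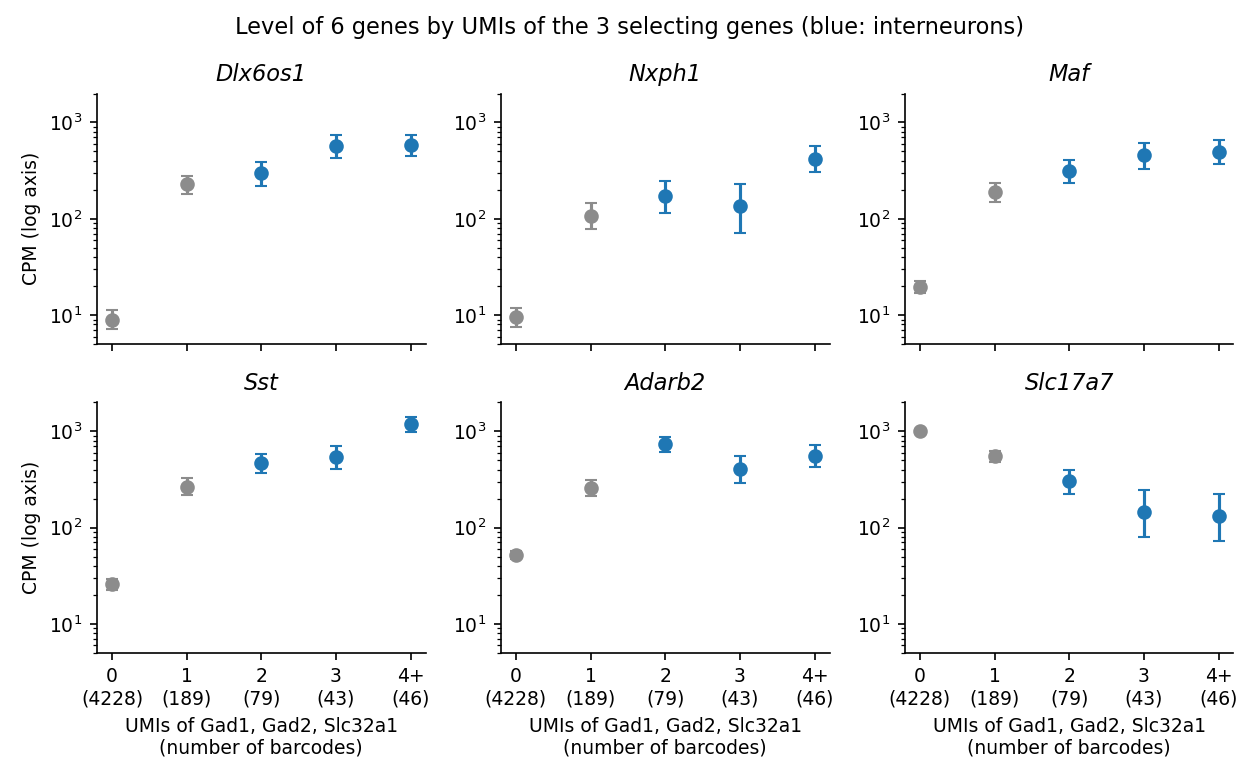
CPM (log axis) of 6 genes in neuronal barcodes of library 1 with 0, 1, 2, 3 and 4 or more UMIs of Gad1, Gad2 and Slc32a1, with the number of barcodes in brackets. Blue points are the interneurons, grey points the barcodes outside the selection, and bars are exact Poisson 95% intervals. Dlx6os1, Nxph1 and Maf were lowest at 0 UMIs and Slc17a7 was lowest at 4 or more, while Adarb2 was highest at 2 UMIs (729 CPM).

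Interneurons and other neurons were then compared over 2139 genes with at least 100 CPM in 1 of the groups. A gene was past the fold where its level with 10 CPM added differed at least 2-fold. In the interneurons 86 genes were past the fold upwards (4.02%) and 117 downwards (5.47%). The highest ratio by its lower bound was that of Dlx6os1 (chr6:6820189-6871592, minus strand, build GRCm38), with 167 UMIs in 68 interneurons against 79 UMIs in 41 of the other neurons. Its level was 450 against 9.01 CPM, a ratio of 49.9 (38.0 to 66.1). Dlx6os1 is annotated as antisense RNA overlapping Dlx6, and the labels and headers do not say whether counting used strand. Dlx6 itself gave 15 UMIs in 15 interneurons against 12 in the other neurons.

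Further genes of the GABA cycle were under the 100 CPM minimum. Abat, which breaks GABA down, was at 40.4 against 10.4 CPM (ratio 3.89, 2.09 to 6.76), and Slc38a1, a glutamine transporter, at 91.6 against 45.7 CPM (2.00, 1.37 to 2.84). Slc6a11, an uptake transporter that astrocytes use, was at 13.5 against 23.8 CPM, a ratio whose interval includes 1 (0.182 to 1.34). For the astrocyte transporter no difference was thus detectable at this depth. Over all 14900 genes with at least 20 UMIs, 50.7% had a ratio above 1 and the median log2 ratio was 0.01.

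The transcription factors that specify interneurons in the ganglionic eminences were seen at low counts. Of 24 in the list, 20 had at least 20 UMIs, and 16 of these were higher in the interneurons and 4 lower (median log2 ratio 1.59). Dlx1 was at 78.1 against 3.08 CPM (ratio 25.4, 14.5 to 44.5) and Sp9, a further factor of the ganglionic eminences, at 35.0 against 1.60 CPM (21.9, 9.49 to 50.3). Lhx6, the MGE factor, gave 17 UMIs in 15 interneurons and 8 UMIs in 8 of the 4228 other neurons, a ratio of 50.2 (20.5 to 134). Nkx2-1, which acts upstream of Lhx6, and Sp8, a factor of CGE cells, gave 6 UMIs each in 5 interneurons and 0 in the other neurons. With the 0 read as 3 counts over the whole group, each was 47.2-fold higher. RNA of factors of both eminences was therefore counted among the members. Nkx2-1 and Sp8 were too sparse to place in a lineage: in barcodes with Lhx6 and without Adarb2 each gave 0 UMIs. In barcodes with Adarb2 and without Lhx6 they gave 2 and 1. Maf, used by MGE cells, was at 404 against 19.6 CPM (20.6, 16.4 to 25.8) in 69 interneurons. It was also in 73.7% of the microglial barcodes, at 782 CPM, which is above its level in both neuron groups. For Maf these barcodes are therefore no measure of stray neuronal RNA. Some members of the list lay near an equal level: Zeb2 was at 649 against 744 CPM, Nr2f2 at 59.3 against 59.2, and Nr2f1 at 59.3 against 86.0.

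**Figure D2:**
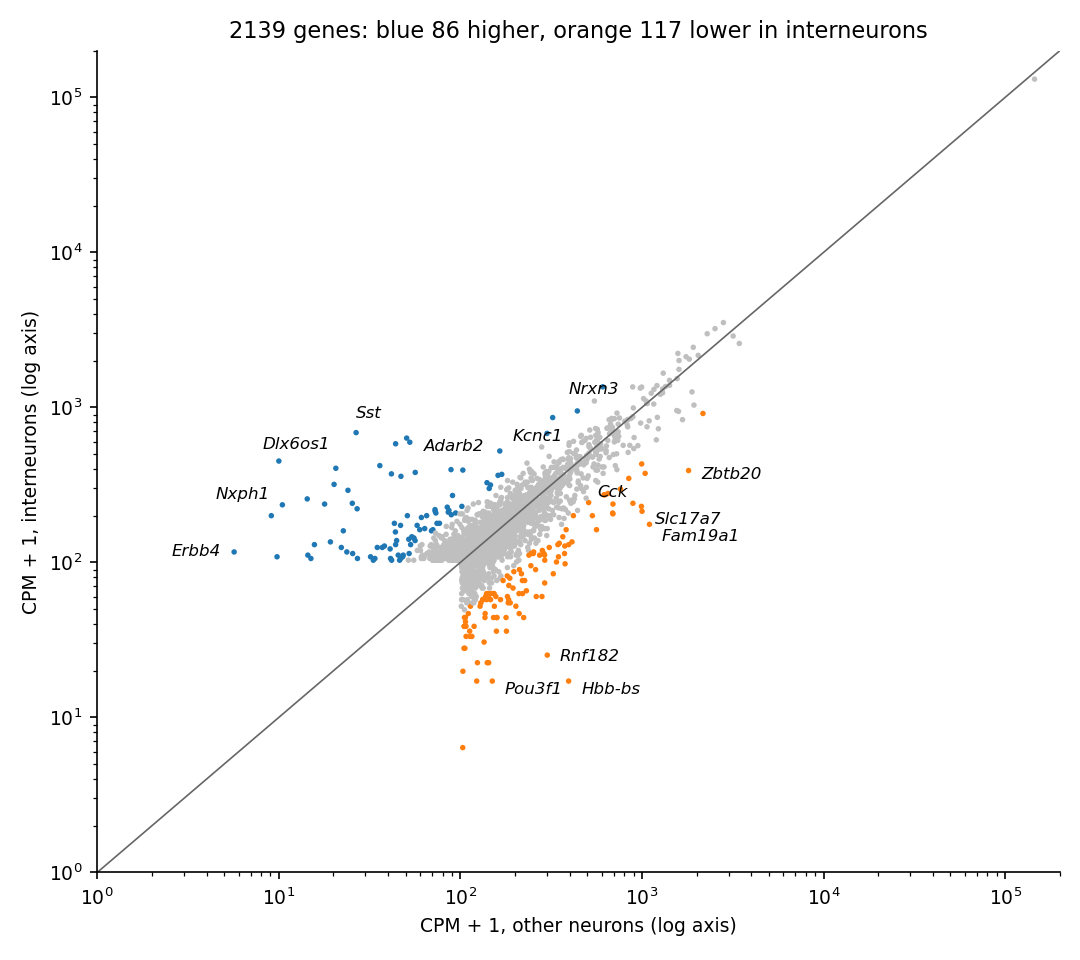
Level of 2139 genes in the other neurons (horizontal) and the interneurons (vertical), as CPM + 1 on log axes. Each point is a gene with at least 100 CPM in 1 of the groups, blue points (86) are past the fold upwards and orange points (117) downwards, and the line marks equal levels. Dlx6os1, Sst, Nxph1 and Erbb4 lie far above the line, and Rnf182, Pou3f1 and Hbb-bs far below it.

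Both lineages of interneuron left a mark in the sum of the 168 barcodes. All 13 MGE-type genes with at least 20 UMIs were higher in the interneurons than in the other neurons, with a summed level of 2109 against 273 CPM (ratio 7.74, 7.13 to 8.39). Nxph1, a secreted ligand of neurexins (chr6:8948431-9249032), was at 234 against 9.47 CPM in 52 interneurons (24.8, 18.1 to 33.9). Cort, which encodes the somatostatin relative cortistatin, was at 37.7 against 1.48 CPM (25.4, 11.1 to 58.8). Of the CGE-type genes 13 of 14 were higher, with a summed level of 2090 against 830 CPM (2.52, 2.34 to 2.71). The exception was Cck, at 347 against 497 CPM. Not all of the 13 CGE-type genes differed detectably. Nr2f2 lay near an equal level, and the intervals of the ratios of Prox1 and Calb2 (0.644 to 6.90 for Calb2) included 1. Adarb2, an RNA-binding relative of the editing enzymes (chr13:8202866-8768747), was at 595 against 51.7 CPM in 46 interneurons (11.5, 9.76 to 13.6). Reln, a secreted matrix protein, was at 159 against 21.7 CPM (7.33, 5.38 to 9.87), and Cnr1, the cannabinoid receptor of Cck-type terminals, at 396 against 87.8 CPM (4.51, 3.75 to 5.38). Reln also marks Cajal-Retzius cells, of whose 6 markers Lhx5, Ebf3 and Nhlh2 were at 0 in the interneurons (summed 164 against 30.0 CPM). This sum is nearly all Reln itself, with 59 of the 61 UMIs in the interneurons and 190 of 263 in the other neurons.

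Subtypes were described by the 7 genes Sst, Npy, Vip, Cck, Pvalb, Adarb2 and Lhx6. Of the 168 interneurons, 40 held none of these, 63 held 1 and 65 held 2 or more, and median depth differed little between the first group (2018.5 UMIs) and the last (2150). Sst was in 40 barcodes (23.8%, 17.6 to 31.0%), against 4.07% of the other neurons and 2.29% of microglial barcodes. After each barcode was thinned to 1000 UMIs these shares were 19.0, 2.39 and 0.845%. Sst was unevenly spread: 2 barcodes held 49 and 43 of its 255 UMIs, and the level of 687 CPM was 445 without them. Adarb2 was in 46 barcodes (27.4%, 20.8 to 34.8%), against 6.79% of the other neurons and 5.43% of microglial barcodes, and in 20.2% after thinning.

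The remaining 5 genes were rarer or less specific. Npy was in 25 interneurons (14.9%, against 1.49% of the other neurons and 1.69% of microglial barcodes) and Lhx6 in 15 (8.93%, against 0.189% and 0 of 828, which allows up to 0.362% by the floor of 3 counts and 0.445% by the exact interval). Vip was in 11 (6.55%, against 1.32 and 1.45%), where it reached 7 UMIs, and Pvalb in 7 (4.17%, against 0.260 and 0.362%) with 1 UMI each. The log2 ratio of Vip was 2.26 over all interneurons and 0.09 among barcodes with at least 2000 UMIs. Cck differed from the other 6: it was in 72 interneurons (42.9%) but in 57.3% of the other neurons and 29.1% of microglial barcodes. A single UMI of Cck therefore could not mark a subtype here, and 24 interneurons held 2 or more. Over the whole neuropeptide list 12 of 18 genes with at least 20 UMIs were higher in the interneurons and 6 lower (summed ratio 1.63, 1.51 to 1.75), and Npy and Sst were the 2 of 6 tested that were past the fold, where 4.02% of all genes tested were.

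Pairs of these genes were unevenly shared among the barcodes, as the map of UMIs per barcode shows. Npy was in 14 of the 40 interneurons with Sst (35.0%) and in 11 of the 128 without (8.59%). Nxph1 was in 21 of the 40 (52.5%) and in 24.2% of those without Sst. Adarb2 was in 4 of the 40 (10.0%) and in 32.8% of those without. Sst thus went with Npy and Nxph1 and seldom with Adarb2. Vip was with Adarb2 in 6 of its 11 barcodes and with Sst in 1. Lhx6 was with Sst in 6 of its 15 barcodes and with Adarb2 in 1. Adarb2 was with Cnr1 in 25 of its 46 barcodes (54.3%, against 22.1% of those without Adarb2), with Reln in 18 (39.1%, against 16.4%) and with Dlx6os1 in 33 (71.7%, against 28.7%).

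**Figure D3:**
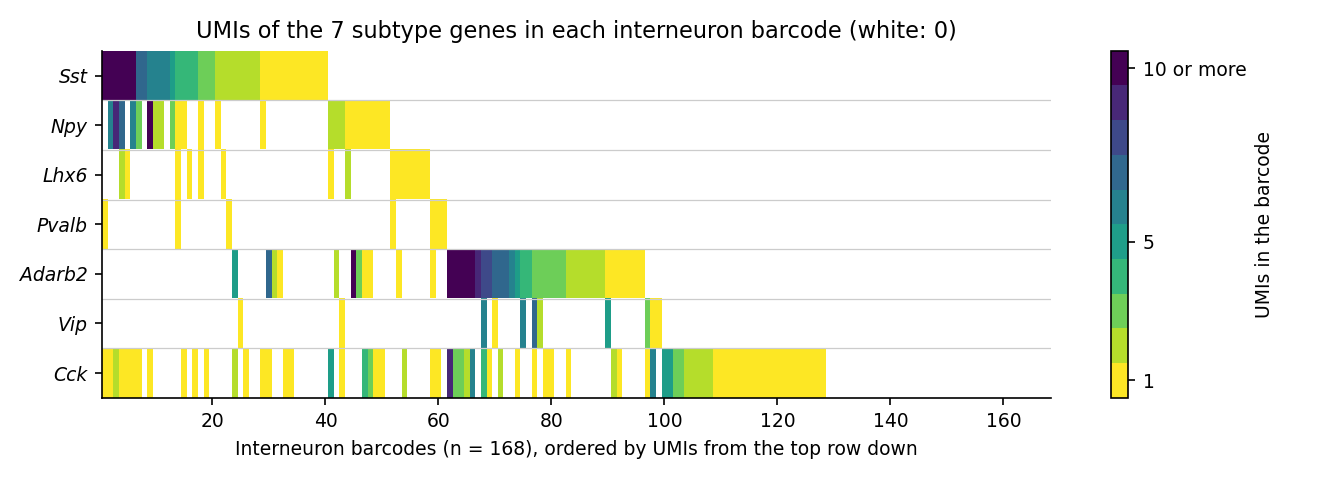
UMIs of 7 subtype genes (rows) in each of the 168 interneuron barcodes (columns), ordered by UMIs from the top row down. White is 0 and the colour scale ends at 10 or more UMIs. The Sst block at the left (40 barcodes) and the Adarb2 block share 4 columns, Npy lies partly over the Sst block, and Cck lies in both blocks and in barcodes with neither.

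Classes were then cut by these genes, which makes them ranges of a readout and not cell types: a single UMI decides. Lhx6 without Adarb2 gave 14 barcodes (8.33%, 33118 UMIs), Adarb2 without Lhx6 gave 45 (26.8%, 99481 UMIs), 1 held both and 108 neither. With so few UMIs, 18.8% of 2707 genes were past the fold upwards in the Lhx6 class and 12.7% downwards, so counts of genes say little. Of 8 MGE-type genes with at least 100 CPM in 1 class, 7 were past the fold towards the Lhx6 class, with Sst at 1389 against 50.3 CPM (46 UMIs in 6 barcodes against 5 in 4, ratio 27.6, 11.0 to 89.1). Of these 46 UMIs, 18 were in 1 barcode and 15 in another. Crhbp, the binding protein of corticotropin-releasing hormone, was at least 8.01-fold higher, with 8 UMIs against 0, although 7 of these came from 1 barcode. Of 8 CGE-type genes 5 were past it towards the Adarb2 class, with Cnr1 at 1056 against 60.4 CPM in the Lhx6 class. The regulator of G protein signalling Rgs12 (36 UMIs in 18 barcodes) and the protease inhibitor Serpine2 (36 UMIs in 14) had 0 UMIs in the Lhx6 class, and each was at least 3.99-fold lower there. The kinase gene Rock2 was more widely counted in the Lhx6 class, with 24 UMIs in 12 of its 14 barcodes against 18 in 12 of 45 (4.01, 2.08 to 7.83). Other leading genes of this comparison rested on 1 barcode: 6 UMIs of the microglial gene Tyrobp in the Lhx6 class were in 1 barcode, and 22 of 30 UMIs of Slc7a11 and 234 of 288 UMIs of Ptgds in the Adarb2 class were in 1 barcode each.

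Sst was used in place of Lhx6 as a deeper, later added cut. It gave 36 barcodes with Sst and without Adarb2 (83121 UMIs), 42 with Adarb2 and without Sst (92744 UMIs), 4 with both and 86 with neither. Of 2392 genes 9.99% were past the fold upwards in the Sst class and 10.1% downwards. Against this background 7 of 8 MGE-type genes were past it upwards and 0 downwards, and 7 of 7 CGE-type genes downwards and 0 upwards. The summed level of the 15 MGE-type genes other than Sst was 2839 against 1068 CPM (ratio 2.66, 2.09 to 3.40), and that of the 15 CGE-type genes other than Adarb2 was 626 against 3159 CPM (0.198, 0.145 to 0.267).

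In the Sst class Npy was at 722 against 64.7 CPM (ratio 11.2, 4.84 to 31.6), with 60 UMIs in 14 barcodes of which 17 were in 1. Nxph1 was at 397 against 108 CPM (3.68, 1.77 to 8.38), and Satb1, a chromatin organiser needed by Sst cells, gave 19 UMIs in 12 barcodes against 3 in 3 (7.07, 2.08 to 37.3). Crhbp gave 22 UMIs in 8 barcodes against 0, which is 8.18-fold higher with the 0 read as 3 counts (exact lower bound 6.11). Rbp4, which carries retinol, gave 25 UMIs in 9 barcodes against 1 (27.9, 4.57 to 1145). These genes were counted in several barcodes each, unlike those resting on 1 barcode above. Maf was the MGE-type gene that was not past the fold, at 373 against 582 CPM (0.641, 0.398 to 1.01). In the Adarb2 class Cnr1 was at 1121 against 192 CPM, and Vip had 27 UMIs against 1 in the Sst class (ratio of Sst to Adarb2 class 0.0413, 0.00101 to 0.251). Lamp5, a membrane protein of neurogliaform cells, had 16 UMIs against 0 in the Sst class. With the 0 read as 3 counts it was 4.78-fold lower in the Sst class (ratio at most 0.289 by the exact interval). Between the Lhx6 and Adarb2 classes Lamp5 was at 302 against 151 CPM, with an interval of the ratio that includes 1 (0.805 to 4.77). Dlx6os1 was at 1035 CPM in the Adarb2 class and at 144 in the Sst class (ratio 0.139, 0.0696 to 0.255). By the Lhx6 cut Dlx6os1 was at 544 CPM against 995 in the Adarb2 class (0.546, 0.311 to 0.908), which is not past the fold. The gene with the highest ratio over all interneurons was thus unevenly held among these classes, more so in the cut by Sst. AC126673.2, an annotated transcript that lies within Adarb2 on its strand, followed it (98 UMIs against 0) and is not separate evidence.

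**Figure D4:**
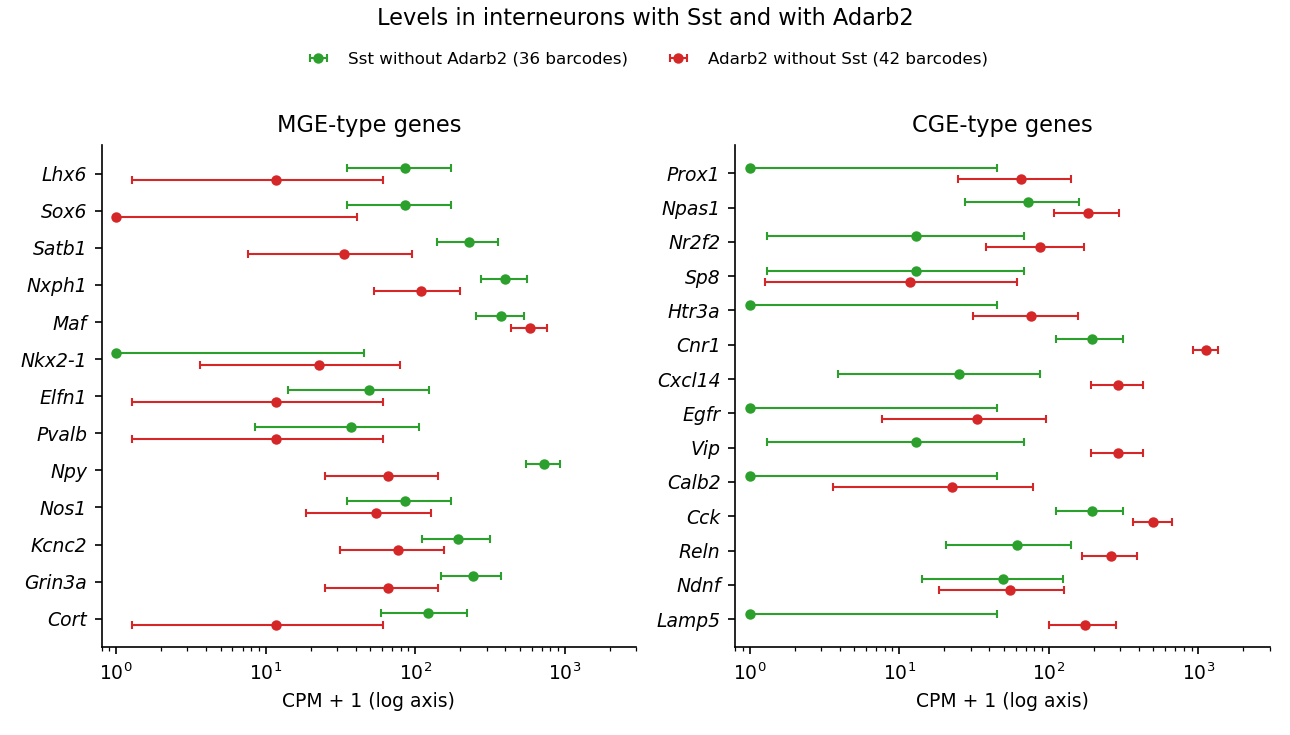
CPM + 1 (log axis) of MGE-type and CGE-type genes in interneurons with Sst and without Adarb2 (green, 36 barcodes) and with Adarb2 and without Sst (red, 42 barcodes), with exact Poisson 95% intervals. Not all list genes are drawn, and Sst and Adarb2, which cut the classes, are left out. Green lies right of red for Npy, Nxph1 and Satb1, and red lies right of green for Cnr1, Cxcl14, Vip and Lamp5.

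Among ion channel and synaptic genes a few members of each list were past the fold. Erbb4, the neuregulin receptor of interneurons (chr1:68032186-69108059, minus strand), was at 116 against 4.68 CPM (ratio 24.8, 15.8 to 39.0). Kcnc1, a potassium channel subunit of fast-spiking cells, was at 523 against 164 CPM in 100 interneurons (3.19, 2.73 to 3.71), and Kcnc2 at 105 against 40.3. Both are channel subunits of 1 family. With Erbb4, these 2 were the 3 genes past the fold of 8 tested in the calcium-binding and fast-spiking list (4.02% of all genes tested), whose summed ratio was 1.49 (1.39 to 1.60).

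Receptors showed the same pattern of single members. The kainate receptor subunit Grik1 (chr16:87895900-88290265, minus strand) was at 318 against 19.2 CPM in 59 interneurons (16.6, 13.0 to 21.1), the AMPA subunit Gria4 at 164 against 62.6 CPM (2.62, 1.98 to 3.42) and the NMDA subunit Grin3a at 102 against 32.2 CPM (3.18, 2.21 to 4.48). In contrast Grin2a was at 832 against 1672 CPM (0.498, 0.443 to 0.557). The 23 glutamate receptor genes had a summed ratio of 0.838 (0.808 to 0.869), though 13 of them were above 1 and 10 below (median log2 ratio 0.09). Of 14 tested, Grik1, Gria4 and Grin3a were the 3 past the fold upwards (4.02% of all genes tested), and 0 were past it downwards. Of the GABA receptor genes 1 of 9 tested, the subunit Gabrg3, was past the fold (172 against 56.8 CPM, where 4.02% of all genes tested were), and the list of 14 had a summed ratio of 1.05 (0.975 to 1.13). Its Gabrg1, under the 100 CPM minimum, was at 67.3 against 7.07 CPM. Of the synapse adhesion genes Nrxn3 was at 948 against 440 CPM (2.16, 1.93 to 2.41). Over this list of 25, 14 genes with at least 20 UMIs were higher and 10 lower, 3 of 12 tested were past the fold (Erbb4, Nrxn3 and Nxph1, against 4.02% of all genes), and the summed ratio was 1.23 (1.17 to 1.30).

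**Figure D5:**
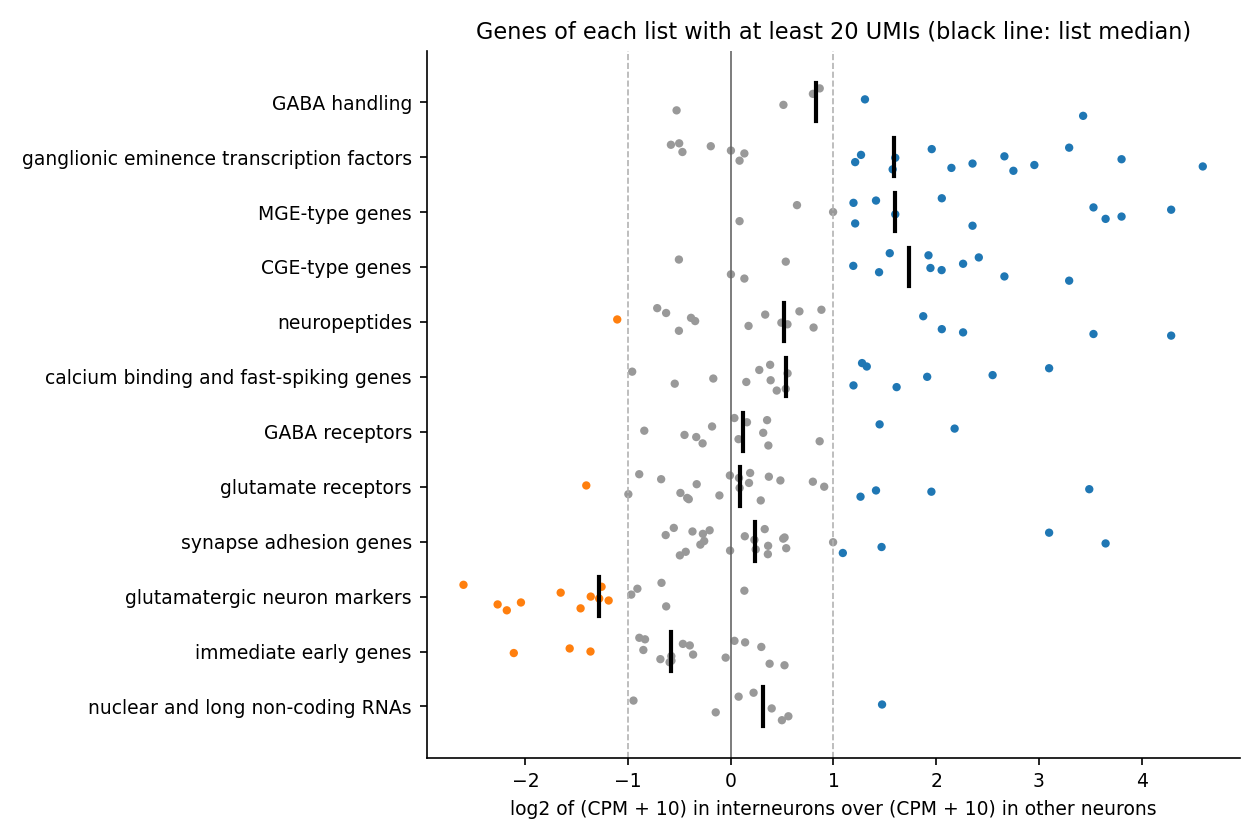
Log2 ratio of each list gene, as (CPM + 10) in interneurons over (CPM + 10) in other neurons, for genes with at least 20 UMIs in both groups together and without the selecting genes. Blue points are at or above 1, orange points at or below -1 (dashed lines), and black lines are list medians. The MGE-type genes have a median of 1.60, the CGE-type genes 1.74 and the glutamatergic markers -1.28.

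Further genes among the 20 highest ratios were the collagens Col19a1 (256 against 13.3 CPM), Col9a3 (237 against 16.9) and Col25a1 (358 against 46.1), the calcium channel subunit Cacna2d2 (420 against 35.0) and the transcription factor Zic1 (108 against 8.78). Sox2ot, a non-coding RNA around Sox2, was at 372 against 40.7 CPM (9.13, 7.45 to 11.1) in 81 interneurons. Sox2 and Gm42692 lie within it on the same strand, at 129 against 14.7 and 240 against 24.4 CPM, and their reads cannot be assigned apart with certainty. C130073E24Rik, a non-coding RNA, was at 582 against 43.0 CPM. AC162467.1 (221 against 26.0 CPM) lies within Grip1, which encodes a scaffold protein of glutamate receptors.

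Genes of glutamatergic neurons were lower in the interneurons. Of 15 markers, all with at least 20 UMIs in both groups together, 14 had a ratio below 1 (median log2 ratio -1.28, summed ratio 0.315, 0.283 to 0.349). Slc17a7 (chr7:45163949-45176142) was at 213 against 1000.3 CPM (0.213, 0.168 to 0.265), and 121 of the 168 interneurons held 0 UMIs of it, 32 held 1 and 15 held 2 to 5. Slc17a7 was in 28.0% of interneurons, 26.8% of microglial barcodes and 79.8% of the other neurons, and after thinning in 17.3, 12.9 and 60.7%. Neurod2, a transcription factor of pyramidal cells, was at 21.5 against 142 CPM (0.152, 0.0653 to 0.299), Pou3f1 at 16.2 against 149, and Camk2a, the calcium-dependent kinase of excitatory synapses, at 431 against 996 CPM. Slc17a6 and Tbr1, a transporter and a factor of other glutamatergic cells, had 0 UMIs in the interneurons and 154 and 138 in the other neurons, and were at least 2.17-fold and 1.95-fold lower. Prox1, a factor of granule cells and of CGE interneurons, was the marker above 1, at 37.7 against 33.5 CPM (1.12, 0.607 to 1.92). Outside the list the lowest ratios included Rnf182, a ubiquitin ligase (24.2 against 300.1 CPM), Fam19a1, a secreted protein (175 against 1099), Zbtb20, a transcription factor of hippocampal pyramidal and granule cells (391 against 1806), and Tshz2 (43.1 against 222). The thyroid hormone binding protein Crym was at 21.5 against 140 CPM and the RNA-binding Raver2 at 16.2 against 122. Hbb-bs, a haemoglobin gene, had the lowest ratio (16.2 against 394 CPM), but 1710 and 1583 of its 3452 UMIs in the other neurons were in 2 barcodes, and without these it was at 18.2 CPM there.

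Immediate early genes, which neurons switch on within minutes of activity and which tissue handling can also raise, were lower as a list in the interneurons. Of 19 with at least 20 UMIs, 14 had a ratio below 1 and 5 above (median log2 ratio -0.58), and the summed level was 673 against 1101 CPM (0.612, 0.537 to 0.693). Npas4, a factor induced by calcium entry, gave 2 UMIs in the interneurons against 496 (0.0952, 0.0115 to 0.346), Nr4a2 was at 21.5 against 83.6 CPM (0.258, 0.111 to 0.511) and Arc, a synaptic protein, at 32.3 against 99.1 CPM (0.326, 0.168 to 0.573). Fos was at 35.0 against 21.3 CPM, with an interval that includes 1 (0.858 to 2.88). Only Junb and Homer1 reached 100 CPM, and neither was past the fold. Of the nuclear RNAs, Malat1 was at 11.5% of UMIs in the median interneuron and 12.5% in the median other neuron, and Miat was at 617 against 1199 CPM. Of this list of 10, with the selecting Meg3 and Snhg11 left out, 6 genes were higher and 2 lower, 0 of 6 tested were past the fold, and the summed ratio was 0.909 (0.901 to 0.917).

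Markers of other cells were present in both groups. Astrocyte markers (6 of 6 detected) summed to 253 CPM in the interneurons and 211 in the other neurons, oligodendrocyte markers (6 of 6) to 1007 and 889, microglial markers (6 of 6) to 366 and 597, and precursor markers (6 of 6) to 124 and 54.5. Choroid plexus markers (4 of 5, Aqp1 at 0) summed to 730 and 527 CPM, with 144 of 271 UMIs in 1 interneuron barcode. Endothelial markers (5 of 6, Ly6c1 at 0) summed to 26.9 and 17.5 CPM, pericyte markers (2 of 6, with Rgs5, Acta2, Tagln and Kcnj8 at 0) to 75.4 and 26.6, and erythrocyte markers (5 of 5) to 26.9 and 622. The part of such RNA in the results above was not tested. Likely doublets were taken as the 416 of 7209 barcodes (5.77%) with the highest doublet scores. Their number was fixed in advance by the expected share and is not a measured rate. They included 8 interneurons (4.76% of all interneurons) and 302 other neurons (7.14% of all other neurons), and they were kept. Mitochondrial RNA was 1.34% of UMIs in the median interneuron and 0.859% in the median other neuron.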

How the data were processed

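The deposited matrices hold raw UMI counts of 41605 features per barcode, made by the authors with Cell Ranger 3.0.1 on GRCm38.p5, per the file headers and the submitters' processing notes. The step that called barcodes (at least 500 UMIs each) and whether strand or introns were counted are not given in the sources used here. UMIs were summed over barcodes of library 1 and scaled to CPM; 10 CPM was added before log2. Intervals are exact (Poisson, Clopper-Pearson; scipy 1.17.1) at 95%. For folds, a count of 0 was read as 3 counts and the other count as exact, so the exact interval can reach a smaller fold. Coordinates and overlaps come from GENCODE M21 (41435 IDs matched), promoters from RefSeq (4 of 4 matched).

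Named genes were the 20 highest and 12 lowest by the ratio's bound nearest to 1, the 10 highest on each side of the Lhx6 and Adarb2 classes, the 7 subtype genes, and up to 6 genes per list with the highest CPM plus those past the fold. Other genes under 100 CPM, and genes of the classes cut by Sst, were named after their values were seen. The members and lists were chosen with earlier results of these data known. Scrublet (scanpy 1.11.5) with its automatic threshold marked 0.0277% of 7209 barcodes, under the accepted 0.5%, so the expected 5.77% with the highest scores was taken in an alternative. The fold rule and intervals were tested on simulated data. Alternatives varied the selection, depth, pseudocount, CPM minimum and class rule. Some genes of the lists and of the rule for named genes are not reported here.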

Additional observations from a re-analysis of the deposited data

Results flagged for a closer look

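Some barcodes of library 1 with at least 2 UMIs of Gad1, Gad2 and Slc32a1 fell outside the selection. Of 200 such barcodes, 16 had under 1000 UMIs, 9 had over 10% mitochondrially encoded UMIs, and 9 passed these limits but held less than 1.5% Meg3 and Snhg11. In the last 9 barcodes the UMIs were 16 of Gad1, 15 of Gad2 and 1 of Slc32a1, beside Nrgn at 1858 CPM. A barcode can fall under more than 1 of these limits.

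Library 2 held 272 UMIs of the 3 genes over all its barcodes, in 205 barcodes, of which 38 had at least 2. The selection reached 3 of them. In library 1 the interneurons held 516 of 1030 such UMIs (50.1%).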

How the results depend on the processing

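Of 100 recomputed values of the main results, 26 moved by more than 1.5 times or beyond the counting interval, and 0 named genes changed sign in 12 settings. Of the named genes' values 65 moved and 367 did not, and with at least 2000 UMIs per barcode the log2 ratio of Vip fell to 0.09 from 2.26. With at least 3 UMIs of the 3 genes the share of neuronal barcodes was 1.94%, and the Lhx6 class had 1060 genes past the fold upwards and 668 downwards; with at least 1 UMI the share was 7.79%, the interneurons had 53 genes upwards and 47 downwards with 4 list genes downwards, Adarb2 without Lhx6 was 19.3%, and the Lhx6 class had 284 genes upwards. With at least 2000 UMIs per barcode the share was 4.33%, with 11 list genes downwards and 526 genes downwards in the Lhx6 class. Without members holding Slc17a7 the share was 2.64%, with 13 list genes downwards, and without likely doublets 11 list genes were downwards. A minimum of 20 CPM gave 339 genes upwards and 345 downwards in the interneurons, and 2796 and 2984 in the Lhx6 class. Cut at 2 UMIs, Lhx6 alone was 1.19% and Adarb2 alone 20.2%, with 1667 genes upwards and 901 downwards, and after thinning the classes were 4.17 and 20.2%. Sst in place of Lhx6, chosen after seeing the data, gave 239 upwards and 241 downwards. Fewer barcodes or more genes tested enter these counts by construction, and other causes were not tested. No paired analysis was possible because each library is 1 unassigned pool.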

Other observations

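In a sample of male mice, 14 UMIs of Xist, the RNA of the silenced X chromosome, were counted in the interneurons, and all 14 were in 1 barcode. The other neurons held 63 UMIs of Xist in 59 barcodes.

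Vtn, a pericyte marker in the lists used here, gave 25 UMIs in 6 interneurons (67.3 CPM) against 14.8 CPM in the other neurons. Of these, 15 were in 1 barcode, and the level without it was 27.2 CPM, while Rgs5, Acta2, Tagln and Kcnj8 were at 0.

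Kcnmb2, a potassium channel subunit under the 100 CPM minimum, gave 21 UMIs in 18 interneurons and 12 UMIs in 12 of the other neurons, a ratio of 41.3 (19.4 to 92.1). Crh, which encodes corticotropin-releasing hormone, gave 8 UMIs in 4 interneurons and 4 in 4 of the other neurons (47.2, 12.7 to 214), with 5 of the 8 in 1 barcode and a level of 21.5 CPM with it and 8.12 without. These genes were chosen after their values were seen.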
